A study of Mus musculus with 20 samples.

Results

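Nonagouti (gene symbol *a*, ENSMUSG00000027596) and 9 genes around it on mouse chromosome 2 were followed through 8 mammary tumors and 12 samples of tumor cells. The 10 genes are nonagouti, *Raly*, *Eif2s2*, *Ahcy*, *Itch*, *Pigu*, *Acss2*, *Fer1l4*, *Zfp341* and *Efcab8*, out of 45706 gene identifiers in the count files. The genes were selected on scaled counts of these same samples, with the nonagouti difference between genotypes already known, so the differences of the 10 genes between the 6 groups, over genotype and over time in culture, are given as descriptions without a test. The question asked was which neighbors follow nonagouti in both materials.

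All samples derive from C57BL/6N mice that carry the polyoma middle T (PyMT) oncogene under the mouse mammary tumor virus (MMTV) promoter. The 4 *MMTV-cre;Ctsd*-/- tumors, called *Ctsd*-/- tumors here, lack the lysosomal protease cathepsin D in mammary epithelium, where the MMTV promoter drives the cre recombinase, whereas stromal cells keep the gene. The 4 control tumors come from CTSD-competent mice, with untargeted or floxed *Ctsd* alleles, and are labelled wild type. Both groups were taken at an age of 18 weeks. The cells are *Ctsd*+/+ and *Ctsd*-/- lines that immortalized spontaneously from PyMT tumors, kept in medium with 1% fetal calf serum for 10 days (1% FCS) or for 12 weeks (1% FCS LT). Each of the 4 groups of cells has 3 replicates. The *Ctsd*-/- cells stem from *MMTV-cre;Ctsd*-/- mice and the *Ctsd*+/+ cells from others, so that in the cells the genotype, the line of origin and the cre transgene cannot be told apart, and the number of lines per genotype is not given in the sources used here. In tumors, the sources name the cre transgene for the *Ctsd*-/- group only, so that transgene and genotype cannot be told apart there either. The library code in the sample labels also differs between all controls and all *Ctsd*-/- tumors, so that code and genotype cannot be told apart.

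Nonagouti encodes agouti signaling protein, a secreted antagonist of melanocortin receptors. In the skin it switches melanocytes from black to yellow pigment by blocking the receptor MC1R, with attractin (ATRN) as an accessory receptor and the ubiquitin ligase mahogunin (MGRN1) acting in the same pathway. Black C57BL/6 mice carry the nonagouti allele, which makes little of this signal in the skin. In the lethal yellow allele of the same locus, a deletion that removes most of *Raly* and *Eif2s2* places the nonagouti coding exons behind the *Raly* promoter, and the protein is then made in nearly all tissues.

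On GRCm38, nonagouti lies on the plus strand of chromosome 2 from 154791402 to 155051012. GENCODE release M21 gives it 6 transcripts, which begin at 154791402, 154951180, 154951219, 155013472, 155013531 and 155047615. The first of these begins inside the first exon of *Raly*, which lies on the same strand from 154791096 to 154867261. Through it, 147 exon bases belong to both genes, 12.6% of the nonagouti exon length and 4.47% of that of *Raly*, and reads there were counted for neither. *Eif2s2* lies within the nonagouti span, on the minus strand from 154871410 to 154892935, without a shared exon. The promoter windows that RefSeq gives for nonagouti (GRCm38.p6, chr2:155013320-155013619, plus strand) and for *Raly* (chr2:154790860-154791159, plus strand) are shown because both starts are annotated for nonagouti or next to it; each runs 5′ to 3′, and capitals mark a GC box (GGGCGG on either strand).

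nonagouti: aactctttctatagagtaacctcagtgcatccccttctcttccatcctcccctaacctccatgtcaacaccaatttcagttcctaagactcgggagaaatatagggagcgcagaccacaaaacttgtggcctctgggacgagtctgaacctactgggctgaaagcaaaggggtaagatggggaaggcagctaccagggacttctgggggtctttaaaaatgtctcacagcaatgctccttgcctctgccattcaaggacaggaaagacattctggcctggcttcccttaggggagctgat
Raly: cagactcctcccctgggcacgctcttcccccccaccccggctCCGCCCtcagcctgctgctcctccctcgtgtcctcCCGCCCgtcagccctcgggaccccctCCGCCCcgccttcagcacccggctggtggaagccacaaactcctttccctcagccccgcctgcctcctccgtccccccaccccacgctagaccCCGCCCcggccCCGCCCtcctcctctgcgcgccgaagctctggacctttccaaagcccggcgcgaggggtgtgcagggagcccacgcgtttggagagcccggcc

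The window of *Raly* has 73.7% G and C, 25 CG dinucleotides and 5 GC boxes, and the window of nonagouti has 50.3%, 3 and 0. Over all 32851 promoter windows of the RefSeq table the median was 52.7% G and C and 7 CG dinucleotides, and 35.7% held a GC box. The nonagouti window also had no match to the TATA box TATAAA (13.6% of all windows), the E-box CACGTG (7.15%), the steroid response half-site AGAACA (19.0%) or the cAMP response element TGACGTCA (1.79%), searched on both strands.

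Total counts on genes ranged from 49725437 to 64291587 in tumors, which were counted regardless of strand, and from 33622831 to 40239762 in cells, which were counted in the stranded form that held at least 97.1% of their strand-assigned reads. Levels are given as CPM, counts per 1000000 after library scaling. *Ctsd* had 1781 to 2617 CPM in control tumors and 360.2 to 1295 CPM in *Ctsd*-/- tumors, 1267 to 4199 CPM over the *Ctsd*+/+ cell samples and 114 to 192 CPM over the *Ctsd*-/- ones. The study's methods call the cell replicates independent experiments, without saying whether they are different lines, and the p-values below measure only the spread between these samples.

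Nonagouti was at the edge of detection in every control sample and abundant in every *Ctsd*-/- sample. Control tumors 1 to 4 had 24, 40, 8 and 17 reads, which is 0.362, 0.618, 0.133 and 0.431 CPM. *Ctsd*-/- tumors 1 to 4 had 19477, 37684, 36334 and 12030 reads, which is 296, 579, 544 and 199.6 CPM. The lowest *Ctsd*-/- tumor was thus far above the highest control tumor, and the *Ctsd*-/- tumors differed among themselves by 2.90-fold. Means of 404.8 ± 186 CPM for *Ctsd*-/- and 0.386 ± 0.200 CPM for controls (SD, n = 4 each) gave a 1049-fold ratio and an edgeR log2 fold change of 10.03 ± 0.62 (SE).

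In *Ctsd*-/- cells nonagouti had 10.3, 15.5 and 15.7 CPM in 1% FCS and 14.5, 16.4 and 18.9 CPM in 1% FCS LT. The 3 *Ctsd*+/+ replicates in 1% FCS had 0 reads each. In 1% FCS LT the *Ctsd*+/+ replicates had 0, 1 and 0 reads. All 6 *Ctsd*-/- samples, with 425 to 783 reads, therefore stood apart from all 6 *Ctsd*+/+ samples. Against the CPM of 3 reads in the smallest *Ctsd*+/+ library, the mean level was at least 151-fold higher in *Ctsd*-/- cells in 1% FCS (13.9 ± 3.04 CPM, SD, n = 3) and at least 205-fold higher in 1% FCS LT (16.6 ± 2.25 CPM, SD, n = 3).

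**Figure D1:**
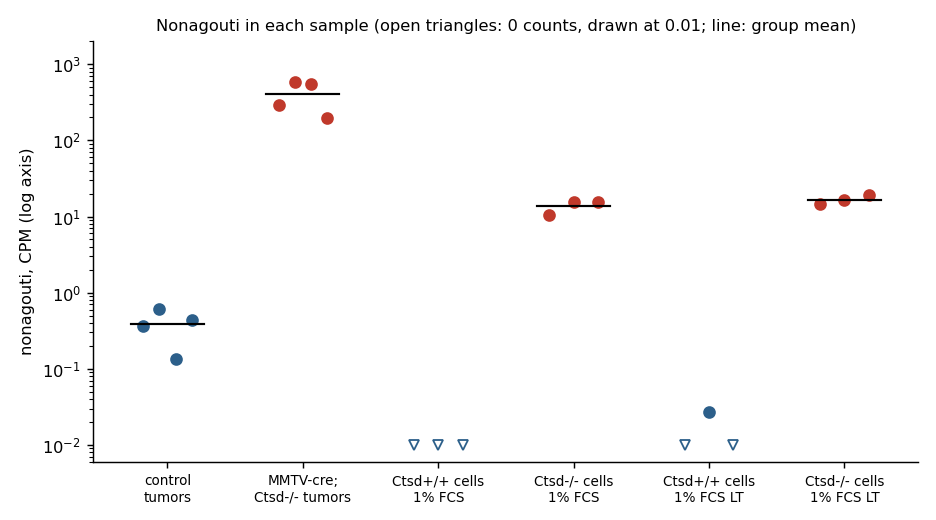
Nonagouti in CPM (log axis) in each of the 20 samples, by group; points are samples, lines are group means, and open triangles mark samples with 0 counts, drawn at 0.01. The 4 *Ctsd*-/- tumors lie between 199.6 and 579 CPM and the 6 *Ctsd*-/- cell samples between 10.3 and 18.9 CPM, above all control samples.

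Between 1% FCS and 1% FCS LT, nonagouti in *Ctsd*-/- cells had a log2 fold change of 0.26 ± 0.25 (SE), and the 3 samples of both times overlapped. The mean level in *Ctsd*-/- tumors was 29.2 times that in *Ctsd*-/- cells in 1% FCS and 24.4 times that in 1% FCS LT. Tumors and cells were counted and scaled separately, and no test was made between them.

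Per kilobase of exon, nonagouti had the highest level of the 10 genes in *Ctsd*-/- tumors, with 346 ± 159 CPM per kb (SD, n = 4), and ranked 163 of the 18527 tested genes with a known length. *Eif2s2* followed with 21.9 ± 5.23 and *Ahcy* with 20.7 ± 1.30 CPM per kb, which did not differ beyond their spread. In control tumors, at 0.330 ± 0.171 CPM per kb, nonagouti was ninth of the 10 in order, within the spread of *Zfp341* (0.403 ± 0.0531), and only *Efcab8* was lower, at 0.0255 ± 0.0174 CPM per kb. In *Ctsd*-/- cells nonagouti stood at 11.9 ± 2.60 CPM per kb in 1% FCS and 14.2 ± 1.92 in 1% FCS LT (SD, n = 3). At both times it was behind *Raly*, *Ahcy* and *Eif2s2* and ahead of *Itch*, which had 7.93 ± 0.0961 and 8.17 ± 0.420 CPM per kb.

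None of the 9 neighbors was higher in *Ctsd*-/- samples in tumors and at both culture times, as judged by the sign of the edgeR log2 fold change. Nonagouti itself was the only member of the 10 with all *Ctsd*-/- samples above all control samples in the 3 comparisons. Over the 14380 genes tested in both materials, 0.334% were wholly above in all 3 comparisons and 14.9% had a positive log2 fold change in all 3. In tumors 2 of the 9 neighbors lay wholly above the controls (2.26% of all tested genes did) and 0 wholly below (1.89%). In 1% FCS 1 neighbor lay wholly above (27.6%) and 3 wholly below (27.6%), and in 1% FCS LT 1 lay wholly above (27.9%) and 1 wholly below (26.4%). The median log2 fold change of the 9 neighbors was 0.12 in tumors, −0.16 in 1% FCS and 0.15 in 1% FCS LT, beside medians over all genes of 0.00073, 0.00025 and 0.014. *Zfp341* came to be positive in all 3 comparisons when replicate 3 of the *Ctsd*+/+ or replicate 1 of the *Ctsd*-/- cells in 1% FCS LT was left out, which raised the number of members with that sign from 1 to 2.

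**Figure D2:**
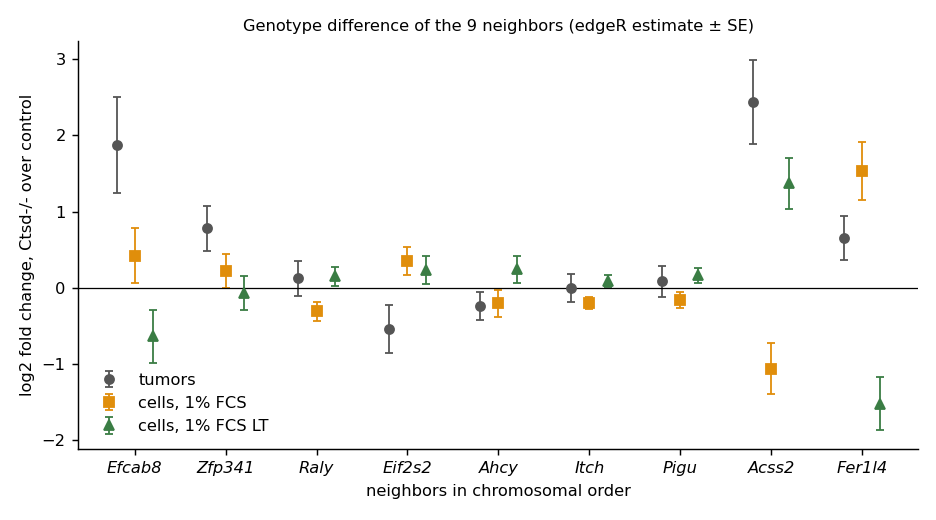
Log2 fold change (*Ctsd*-/- over control, edgeR estimate ± SE) of the 9 neighbors in chromosomal order, in tumors (circles), in cells in 1% FCS (squares) and in cells in 1% FCS LT (triangles). No neighbor has all 3 symbols above 0. Only *Eif2s2* keeps its sign between the culture times, and the sign changes of *Acss2* and *Fer1l4* are the largest.

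The genes nearest to nonagouti did not share its pattern. *Raly*, an RNA-binding protein of the hnRNP family whose first exon nonagouti shares, had 33.6, 38.4, 23.6 and 45.8 CPM in control tumors and 44.4, 42.0, 32.9 and 34.6 CPM in *Ctsd*-/- tumors. These ranges overlapped, with a log2 fold change of 0.12 ± 0.23 (SE). In 1% FCS *Raly* had 239, 259.5 and 228 CPM with *Ctsd*+/+ and 167, 219.6 and 200.5 CPM with *Ctsd*-/-. Here all *Ctsd*-/- replicates lay below the *Ctsd*+/+ replicates (log2 fold change −0.31). In 1% FCS LT the values were 195, 173 and 169 CPM and 209.5, 216 and 169.8 CPM, which overlapped (0.15). *Raly* was thus within 0.31 of 0 on the log2 scale in each of the 3 comparisons.

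*Eif2s2* encodes the beta subunit of the translation initiation factor eIF2. It had 139, 148, 222 and 352.5 CPM in control tumors and 197, 116, 148 and 129.6 CPM in *Ctsd*-/- tumors, with a log2 fold change of −0.54 ± 0.32 (SE). In cells its sign was the opposite, with 0.36 in 1% FCS and 0.24 in 1% FCS LT, and the genotypes overlapped in all 3 comparisons. The predicted gene *Gm14226*, which also lies within the nonagouti span, had 2 reads over the 4 control tumors, 18 over the 4 *Ctsd*-/- tumors and 1 over all cell samples.

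Downstream of nonagouti, *Ahcy* (from 155059310 to 155074497, minus strand, 8.30 kb away) encodes the hydrolase that clears S-adenosylhomocysteine. It had 56.6 to 83.9 CPM in control tumors and 54.3 to 62.6 CPM in *Ctsd*-/- tumors, and log2 fold changes of −0.24, −0.20 and 0.24 in tumors, 1% FCS and 1% FCS LT. *Itch* (155133509 to 155226855, plus strand, 82.5 kb away), a HECT-type ubiquitin ligase, had −0.0023, −0.20 and 0.09. *Pigu* (155278243 to 155357430, minus strand, 227 kb away), a subunit of the GPI transamidase, had 0.08, −0.16 and 0.16. For *Itch* and *Pigu* all *Ctsd*-/- replicates in 1% FCS lay below the *Ctsd*+/+ replicates, as for *Raly*, and in the other comparisons the ranges overlapped.

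*Acss2* (155517948 to 155585724, plus strand, 467 kb away) encodes the acetyl-CoA synthetase of cytosol and nucleus. It was the only neighbor wholly above the controls in tumors and in cells at a culture time. Control tumors had 15.7, 21.01, 16.1 and 19.8 CPM, and *Ctsd*-/- tumors had 40.6, 28.1, 197 and 128.6 CPM, with a log2 fold change of 2.44 ± 0.55 (SE). The order of the *Ctsd*-/- tumors was not that of nonagouti, since tumor 2, with 579 CPM of nonagouti, had the least *Acss2*. The summed level of 8 adipocyte markers was 8559, 3645, 12452 and 25754 CPM in *Ctsd*-/- tumors 1 to 4 and 573 to 5887 CPM in controls, and all 8 passed an unadjusted p of 0.1 as higher. With an adipocyte score as a covariate the log2 fold change was 0.70 ± 0.73 for *Acss2* and 10.00 ± 0.72 for nonagouti (SE).

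In cells the genotype difference of *Acss2* had opposite signs at the 2 times. The 1% FCS values were 30.95, 13.6 and 10.97 CPM for *Ctsd*+/+ and 7.59, 7.89 and 11.1 CPM for *Ctsd*-/- cells, where the ranges overlapped (log2 fold change −1.06). The 1% FCS LT values were 11.9, 8.498 and 13.0 CPM for *Ctsd*+/+ and 26.3, 29.5 and 30.4 CPM for *Ctsd*-/- cells, all *Ctsd*-/- replicates being higher (1.37). Adipocyte markers were near 0 in the cells, with *Cfd* at 0 in all 12 samples and *Plin1* in all 4 groups. *Ctsd*+/+ replicate 1 in 1% FCS, the sample highest in *Acss2* of its group, had 29.4 CPM of summed adipocyte markers beside 2.60 and 1.05 CPM in the other replicates.

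*Fer1l4* (156019139 to 156052947, minus strand, 968 kb away), a member of the ferlin family, had 4.67, 3.64, 6.45 and 5.63 CPM in control tumors and 8.60, 7.73, 5.51 and 10.3 CPM in *Ctsd*-/- tumors. These overlapped, with a log2 fold change of 0.65 ± 0.29 (SE), and of 0.72 with the adipocyte score. The 1% FCS replicates had 0.480, 0.275 and 0.523 CPM for *Ctsd*+/+ and 1.53, 0.822 and 1.36 CPM for *Ctsd*-/-. The 1% FCS LT replicates had 2.62, 4.69 and 3.30 CPM for *Ctsd*+/+ and 0.910, 1.13 and 1.64 CPM for *Ctsd*-/-. The *Ctsd*-/- cells were thus wholly above *Ctsd*+/+ cells at the first time (1.53) and wholly below them at the second (−1.52), while their own level was about the same at both times.

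**Figure D3:**
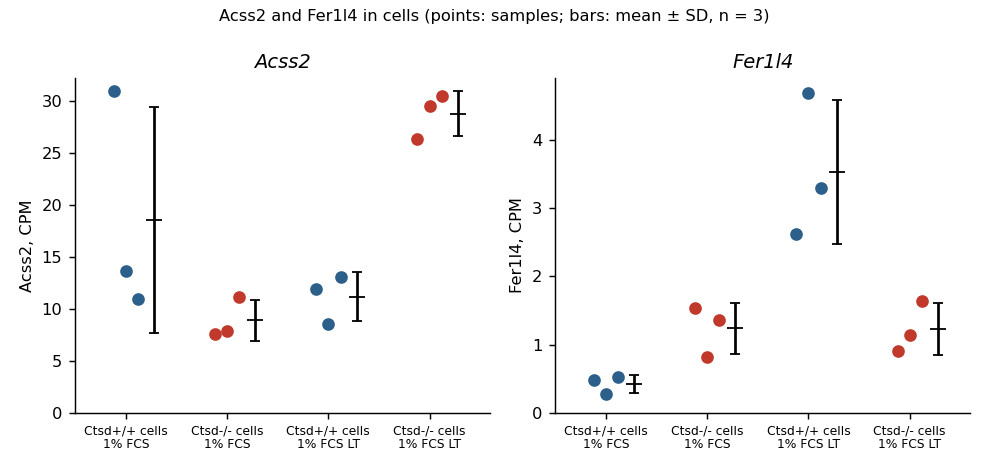
*Acss2* (left) and *Fer1l4* (right) in CPM in the 4 groups of cells; points are samples and bars give the mean ± SD (n = 3). *Acss2* is highest in *Ctsd*-/- cells in 1% FCS LT (26.3 to 30.4 CPM) apart from a *Ctsd*+/+ replicate at 30.95 CPM, and *Fer1l4* is highest in *Ctsd*+/+ cells in 1% FCS LT (2.62 to 4.69 CPM).

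Upstream, *Zfp341* (154613297 to 154646821, plus strand, at −144.6 kb), a zinc finger transcription factor, was wholly above the controls in tumors. Control tumors had 1.27, 1.22, 1.59 and 1.24 CPM and *Ctsd*-/- tumors 2.40, 2.57, 2.08 and 2.09 CPM, with a log2 fold change of 0.78 ± 0.30 (SE), and of 1.07 ± 0.45 with the adipocyte score. In cells the genotypes overlapped, with 0.22 in 1% FCS and −0.07 in 1% FCS LT. Of its exon bases 11.8% overlap genes of the other strand, and reads there were set aside in tumors. *Efcab8* (153779931 to 153844751, plus strand, at −946.7 kb), an EF-hand protein, was barely detected, with 3, 7, 9 and 11 reads in control tumors and 28, 18, 54 and 35 reads in *Ctsd*-/- tumors. Its log2 fold change was 1.87 ± 0.63 in tumors (0.85 ± 0.88 with the adipocyte score), 0.42 in 1% FCS and −0.64 in 1% FCS LT, and the ranges overlapped each time.

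Between culture times, 2 of the 9 neighbors lay wholly higher in 1% FCS LT than in 1% FCS in *Ctsd*+/+ cells (27.3% of all tested genes did) and 3 wholly lower (26.3%). The higher ones were *Fer1l4*, with a level 8.21-fold that of the first time (log2 fold change 3.04 ± 0.38, SE), and *Efcab8*, with 0.92 ± 0.36 from 18 to 24 reads per sample in 1% FCS and 36 to 51 in 1% FCS LT. The lower ones were *Raly* (−0.44 ± 0.13), *Pigu* (−0.29 ± 0.10) and *Itch* (−0.24 ± 0.08), and this comparison shares the *Ctsd*+/+ samples in 1% FCS with that between the genotypes. In *Ctsd*-/- cells 1 neighbor lay wholly higher in 1% FCS LT (13.5% of all tested genes) and 0 wholly lower (11.9%). This was *Acss2*, at 3.24-fold its level in 1% FCS (1.70 ± 0.34, SE). *Fer1l4* had −0.012 ± 0.35 there, and *Raly*, *Itch* and *Pigu* had 0.02, 0.04 and 0.04.

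For *Acss2* and *Fer1l4* the genotype differences in cells were far apart at the 2 times. For *Acss2* the genotype difference was 2.43 ± 0.47 (SE) higher on the log2 scale in 1% FCS LT than in 1% FCS, and it was 1.84 to 2.69 higher with each sample left out in turn. For *Fer1l4* this value was −3.05 ± 0.52, and −3.31 to −2.79 with each sample left out. The other 7 neighbors had values from −1.06 (*Efcab8*) to 0.46 (*Raly*). Markers of other cell types moved with these groups. The summed level of 7 fibroblast markers was 1178 to 3310 CPM in *Ctsd*+/+ cells in 1% FCS and 3.05 to 99.8 CPM in the other cell groups, and that of 8 epithelial markers was 1017 to 2163 CPM in the former and 5908 to 12951 CPM in the latter. The *Ctsd*+/+ cells in 1% FCS thus stood apart, and the part of the fibroblast markers in the results on the cells was not tested. In tumors, and in cultures if they are mixed, a lower share of cells of a type and less RNA per cell cannot be told apart. Whether the cell samples held a mixture of cell types or cells in a changed state was not tested.

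Over all 157 counted genes within 2 Mb of nonagouti, 96 were tested in at least 1 material, 93 of them in tumors and 78 in cells. The 10 genes chosen on these values were left out of the counts of calls. In tumors 8 of the other 83 were higher and 4 lower at an unadjusted p under 0.1 (8.44% and 8.27% of all tested genes). In cells 15 of the other 68 were higher and 20 lower in 1% FCS (23.5% and 25.1% of all tested genes) and 11 and 10 in 1% FCS LT (20.5% and 19.1%), at an adjusted p under 0.05. Within 0.25 Mb, where *Raly*, *Eif2s2*, *Ahcy*, *Itch*, *Pigu* and *Zfp341* lie, the tested genes other than nonagouti had log2 fold changes from −0.91 to 1.18 in tumors (14 genes), from −0.76 to 0.43 in 1% FCS (12 genes) and from −0.91 to 0.29 in 1% FCS LT (12 genes). Nonagouti was the only gene of the 2 Mb neighborhood that was wholly above the controls in all 3 comparisons, among 48 such genes in the genome, 5 of them on chromosome 2.

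Without the 10 genes, those with the largest changes among genes passing these thresholds lay beyond 0.25 Mb. Most tested genes of the neighborhood lie there as well. Within 0.25 Mb there were 14 tested genes other than nonagouti in tumors and 12 in cells, against 48 and 42 at 1 to 2 Mb. *Myl9*, a myosin light chain of smooth muscle 1724 kb downstream, had a log2 fold change of −6.13 in 1% FCS (adjusted p = 8.57e-05) and 4.12 in 1% FCS LT (adjusted p = 0.0138), but 0.04 in tumors. The call in 1% FCS LT was lost with limma-voom (adjusted p = 0.159) and without *Ctsd*+/+ replicate 2 in 1% FCS LT (0.0513). *Ggt7*, which overlaps *Acss2* on the other strand, had −4.58 in 1% FCS (adjusted p = 2.68e-06) and 2.17 in 1% FCS LT (adjusted p = 0.000672), the same signs as *Acss2*. *Procr*, the endothelial protein C receptor, was lower in *Ctsd*-/- cells at both times (−3.69 and −4.08, adjusted p of 8.80e-06 and 8.54e-06) and had 0.63 in tumors (adjusted p = 0.637). Among these genes only *Nol4l*, 1261 kb upstream, had 3 positive values. They were 0.59 in tumors (adjusted p = 0.597), 1.67 in 1% FCS (adjusted p = 0.0108) and 3.69 in 1% FCS LT (adjusted p = 0.000208). Other genes within 2 Mb that are not named here also had 3 positive values, as did 14.9% of all genes tested in both materials. Nonagouti and its listed neighbors were left out of the ranking in tumors as well. There the largest changes at an unadjusted p under 0.1 were those of *Bpifa1* (−2.79), *Bpifb1* (1.79) and *Myh7b* (1.73). Their adjusted p ranged from 0.577 to 0.594, with mean levels of at most 12.5 CPM.

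**Figure D4:**
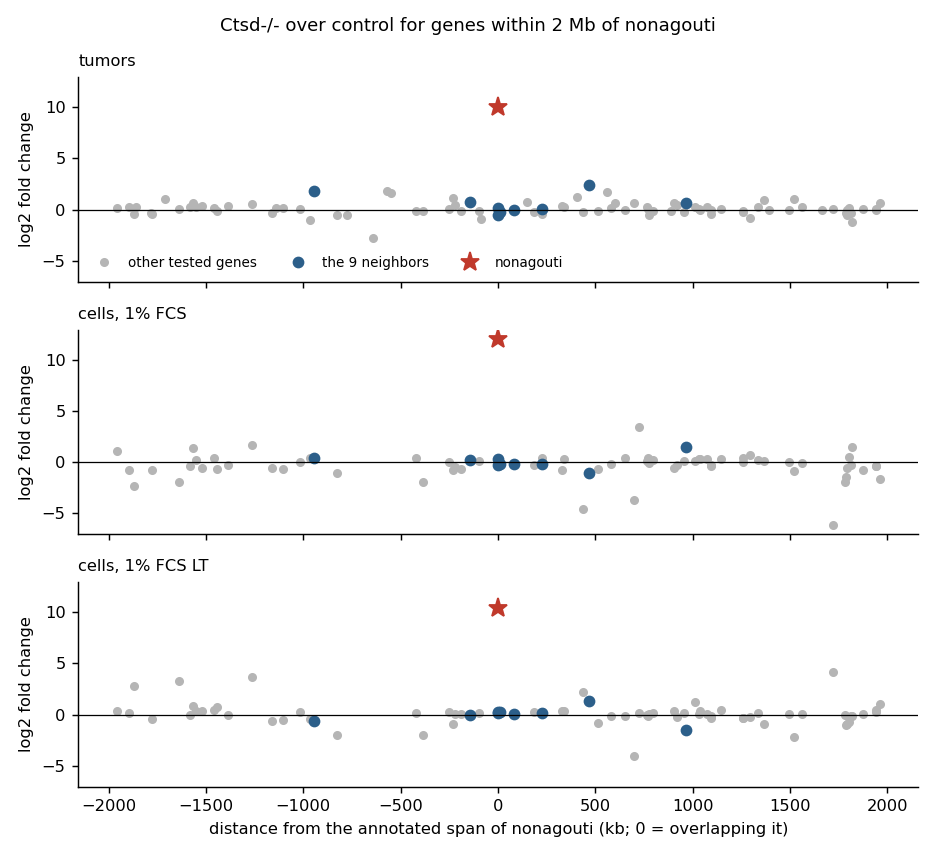
Log2 fold change (*Ctsd*-/- over control) of the tested genes within 2 Mb of nonagouti against their distance from its annotated span in kb, in tumors, in cells in 1% FCS and in cells in 1% FCS LT; the star is nonagouti, blue points are the 9 neighbors and gray points other genes. Nonagouti stands alone near 10 to 12, and since *Ctsd*+/+ cells have almost no reads its height in the lower panels is not set by the counts.

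The strand of the reads, which the choice of genes did not use, was recorded in cells. In *Ctsd*-/- cells in 1% FCS nonagouti had 87, 85 and 86 reads in the stranded form that holds few reads of most genes, beside 425, 567 and 531 in the main form. In 1% FCS LT it had 109, 100 and 86 reads beside 604, 638 and 783. All 6 *Ctsd*+/+ samples had 0 reads in this form. Summed over the *Ctsd*-/- cells, 13.5% of its strand-assigned reads (553 of 4101; 95% Wilson interval 12.5% to 14.6%) lay on the other strand, and the share was between 9.90% and 17.0% in each sample. The interval covers counting error only.

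For 8 of the 9 neighbors this share was between 0 and 0.345% in the same cells. *Acss2* had 22.0%, and 9.12% of its exon bases overlap exons of *Ggt7*, *Acss2os* and *Gss* on the other strand. Of the 7122 genes that had at least 1000 strand-assigned reads in *Ctsd*-/- cells and no exon overlapped by an exon of the other strand in the annotation, the median share was 0.0541%, and 21 had a higher share than nonagouti, which is among them. Over all 11174 genes with that many reads, overlapping genes included, 1061 had a higher share. In tumors 52.8% to 53.7% of all strand-assigned reads lay in the same form, so the strand of nonagouti reads could not be read there.

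**Figure D5:**
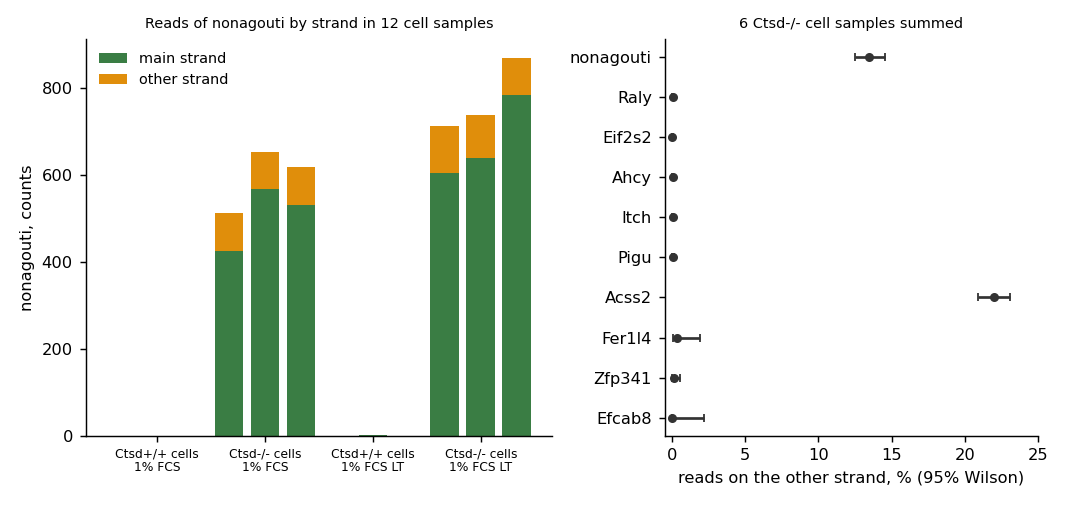
Left, reads of nonagouti in the 12 cell samples, stacked by strand. Right, share of reads on the other strand for the 10 genes, summed over 6 *Ctsd*-/- cell samples, with 95% Wilson intervals. Nonagouti (13.5%) and *Acss2* (22.0%) stand above the other 8 genes, which are at or below 0.345%.

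The melanocortin and pigment genes, a list of 26 receptors, ligands, accessory proteins and melanocyte genes, held few genes that could be tested. In tumors 17 passed the filter on low counts, of which 0 had an adjusted p under 0.05 (edgeR; 0.00537% of all tested genes) and 6 an unadjusted p under 0.05 (8.94% of all tested genes). At an unadjusted p under 0.1, 6 were higher and 2 lower (8.44% and 8.27% of all tested genes). limma-voom called 0 as well, and DESeq2 called 1, *Mc5r*. Their median log2 fold change was 0.36, beside 0.00073 over all genes. In cells 6 passed the filter, and 2 were called higher and 1 lower at each time (23.5% and 25.1% of all tested genes in 1% FCS, 20.5% and 19.1% in 1% FCS LT), with medians of 0.09 in 1% FCS and 0.09 in 1% FCS LT. Over time in *Ctsd*+/+ cells 2 rose and 1 fell (23.0% and 23.4% of all tested genes), whereas in *Ctsd*-/- cells edgeR and limma-voom called 0 (1.57% and 0.810% of all tested genes by edgeR), with 2 at an unadjusted p under 0.05, and DESeq2 called 1, *Mitf*.

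Among the receptors, *Mc1r*, the target of agouti signaling protein on melanocytes, was too low to be tested, with mean levels of at most 0.0453 CPM in any group. *Mc4r*, its counterpart in the hypothalamus, had a mean of at most 0.00634 CPM. *Mc5r* had 1.62 ± 1.13 CPM in *Ctsd*-/- and 0.0267 ± 0.0360 CPM in control tumors (SD, n = 4), a log2 fold change of 6.01 ± 1.00 (SE) with an unadjusted p of 0.000118 and an adjusted p of 0.274. *Mc2r*, the receptor for corticotropin, had 2.92 ± 1.03 (adjusted p = 0.529), and *Mrap*, which carries it to the cell surface, 2.38 ± 0.88 (adjusted p = 0.544). With the adipocyte score as a covariate the values were 3.70 for *Mc5r*, 0.00088 for *Mc2r* and −0.60 for *Mrap*. *Agrp*, the related antagonist of the hypothalamus, had 0.08 in tumors (adjusted p = 0.979).

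Of the accessory genes, *Mgrn1* was higher in *Ctsd*-/- cells at both times, with 124 ± 3.94 against 95.4 ± 11.7 CPM in 1% FCS (SD, n = 3; log2 fold change 0.37, adjusted p = 0.0114) and 123 ± 5.21 against 98.4 ± 8.85 CPM in 1% FCS LT (0.32, adjusted p = 0.0282). The second call was lost in edgeR without a filter (adjusted p = 0.0524) and without *Ctsd*+/+ replicate 1 or 2 or any of the 3 *Ctsd*-/- replicates in 1% FCS LT (0.0502 to 0.108). *Atrn* was higher in 1% FCS LT only at the threshold (0.51, adjusted p = 0.00504, against −0.17 in 1% FCS, adjusted p = 0.268), and in *Ctsd*+/+ cells it fell by 0.75 over time (adjusted p = 0.000352). Its relative *Atrnl1* was higher in 1% FCS (0.60, adjusted p = 0.00729) and had 0.30 in 1% FCS LT (adjusted p = 0.142). *Pmel*, a melanosome protein, was lower in *Ctsd*-/- cells at both times (−0.93 and −0.999, adjusted p of 0.0437 and 0.0390), at levels near 1 CPM. This call was lost in 15 of 19 other settings in 1% FCS (adjusted p from 0.0511 to 0.248) and in 11 of 19 in 1% FCS LT (0.0521 to 0.141), including limma-voom, edgeR without a filter, the 8 samples of 1 library code and each *Ctsd*-/- replicate of the time compared left out. In *Ctsd*+/+ cells *Mitf*, the transcription factor of melanocytes, rose by 1.06 over time (adjusted p = 0.00185) and *Kitl*, the ligand of KIT, by 1.76 (adjusted p = 0.00614). The changes in *Ctsd*-/- cells had the same sign without being called, at 0.87 for *Mitf* (adjusted p = 0.0588) and 1.02 for *Kitl* (adjusted p = 0.239).

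The pigment enzymes *Tyr* and *Tyrp1* had means of at most 0.0652 CPM in any group, and *Tyr* was at 0 in 3 of the 4 groups of cells. *Dct*, another pigment enzyme, had 0.763 ± 0.751 CPM in *Ctsd*-/- and 0.113 ± 0.126 CPM in control tumors (SD, n = 4). Its log2 fold change was 2.79 ± 1.15 (SE, adjusted p = 0.552), and −0.92 with the adipocyte score. In tumors *Ednrb*, an endothelin receptor, had 1.10 ± 0.48 and *Pmel* −0.93 ± 0.41 (adjusted p = 0.555 each), and 0.31 and −1.40 with the score. The summed level of 6 melanocyte markers was 123 to 242 CPM in control and 157 to 329 CPM in *Ctsd*-/- tumors, nearly all from *Sox10*, and at most 1.74 CPM in any cell sample. The *Ctsd*-/- samples with abundant nonagouti therefore had no higher range of melanocyte markers in cells (0.591 to 0.958 CPM, against 0.785 to 1.74 CPM in *Ctsd*+/+ cells). Endothelial markers (4 genes) summed to 42.8 to 89.4 CPM in control and 55.3 to 222 CPM in *Ctsd*-/- tumors, macrophage markers (5 genes) to 440 to 1222 and 535 to 1188 CPM, brown adipocyte markers (4 genes) to 9.26 to 26.6 and 18.6 to 162 CPM, and milk protein genes (4 genes) to 14784 to 27639 and 8691 to 23727 CPM. The brown adipocyte markers were below 1 CPM in each cell sample, and their part in the tumor values was not tested.

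The genes most like nonagouti were not its neighbors. Likeness was taken as Pearson's r of log2 CPM over the 20 samples, each material centred on its own mean, for the 14380 genes tested in both materials. Since the 2 genotypes form separate clusters in nonagouti, r mostly describes how a gene separates them, and it is given as a description. The first 5 were *Crb1* (chromosome 1, r = 0.947), *Exoc3l* (chromosome 8, 0.904), *A530016L24Rik* (chromosome 12, 0.897), *Jak3* (chromosome 8, 0.886) and *Tmem179* (chromosome 12, 0.882). *Crb1*, a polarity protein of epithelia and retina, had 2.70 ± 1.31 CPM in *Ctsd*-/- and 0.0442 ± 0.0527 CPM in control tumors (SD, n = 4), 0.575 ± 0.193 and 0.009995 ± 0.0173 CPM in *Ctsd*-/- and *Ctsd*+/+ cells in 1% FCS and 0.451 ± 0.123 and 0.0449 ± 0.0563 CPM in 1% FCS LT (SD, n = 3). *Jak3*, a tyrosine kinase of cytokine receptors, had 21.5 ± 3.70 against 10.4 ± 2.57 CPM in tumors, 47.5 ± 4.88 against 18.2 ± 6.22 CPM in 1% FCS and 52.7 ± 0.757 against 12.0 ± 1.76 CPM in 1% FCS LT.

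Of the neighbors *Zfp341* came closest, with r = 0.614 and rank 667 of 14380, followed by *Acss2* (0.513, rank 1466) and *Efcab8* (0.444, rank 2112). For these 3 genes r was 0.912, 0.764 and 0.789 over the 8 tumors and 0.193, 0.166 and −0.18 over the 12 cell samples. The 6 others had r between −0.17 and 0.150 over all samples, and *Raly*, which shares an exon with nonagouti, had 0.083.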

How the data were processed

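RNA was sequenced from 8 snap-frozen tumors and 12 samples of cultured tumor cells. The authors trimmed the reads with Trimmomatic and mapped them to GRCm38/mm10 with STAR. They deposited raw counts per Ensembl gene in 3 forms (regardless of strand and for each strand), without normalization. The layout is that of STAR's own gene counts, which set reads on several genes aside, and the annotation release is not given in the sources used here. Positions and symbols came from GENCODE M21 (45143 of 45706 identifiers found). Promoter windows came from RefSeq on GRCm38.p6, which lists 9 of the 10 genes. Rows that name no gene held 24.7% to 32.7% of reads in tumors and 14.8% to 18.9% in cells and were left out.

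The form for a single strand was taken where it held at least 90% of strand-assigned counts in every sample, as in cells, and the form without regard to strand otherwise. In R 4.3.3, edgeR 4.0.16 filtered genes with filterByExpr (18617 tested in tumors, 15178 in cells), scaled libraries by TMM and applied two-sided quasi-likelihood F-tests with Benjamini-Hochberg adjustment over all tested genes. Tumors and cells were fitted separately, each with a coefficient per group. Genes were called at an adjusted p under 0.05, and in tumors also counted at an unadjusted p under 0.1, the threshold of the study. Only for the fold bounds of nonagouti in cells, a *Ctsd*+/+ group with at most 3 reads in every library was set to 3 reads in its smallest library. Likeness used a prior count of 2. In simulated data 200 genes that were not low in counts changed by 2 on the log2 scale, with the same dispersion for all genes. Of these, edgeR recovered 81.0% in the tumor design (18372 genes, 2.41% of calls false). It recovered 100.0% in the 1% FCS genotype comparison (14871 genes, 5.21% false). With DESeq2 14.06% and 12.66% of calls were false. Smaller changes were not simulated.

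The 10 genes, the lists of 26 pathway genes and of 8 kinds of markers, and the rule for named genes were chosen with earlier results of these data known. The rule takes the 10 genes, *Ctsd*, up to 3 called genes within 2 Mb with the largest log2 fold change in each genotype comparison, the 5 genes most like nonagouti, pathway genes called in any comparison with *Mc1r*, *Mc4r*, *Atrn*, *Mgrn1* and *Agrp*, and the 2 most abundant markers of each list. *Dct*, *Ednrb*, *Mc2r*, *Mc5r*, *Mrap*, *Tyr* and *Tyrp1* were named after their values were seen. Alternatives were limma-voom (limma 3.58.1), DESeq2 1.42.0, its size factors in edgeR, no filter, each sample left out, a replicate block, another count column, the 8 cell samples of 1 library code, and an adipocyte score in tumors. The replicate numbers of the samples carry no stated pairing. Tests of the 10 genes over culture time had been planned and are not given, because the genes were chosen on values of all 6 groups.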

Additional observations from a re-analysis of the deposited data

Results flagged for a closer look

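The genotype difference of *Fer1l4* had opposite signs at the 2 culture times, with all *Ctsd*-/- samples above all *Ctsd*+/+ samples in 1% FCS and below them in 1% FCS LT. It was −3.05 on the log2 scale in 1% FCS LT relative to 1% FCS. The difference was not tested, since the gene was chosen on these values.

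The strand of reads was used in no comparison between groups. Of the nonagouti reads in *Ctsd*-/- cells, 13.5% lay in the stranded form that holds a median of 0.0541% over genes without an overlap on the other strand, and the *Ctsd*+/+ cells had 0 such reads.

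Among the 20 groups of 4 tumors examined (10 genes in 2 groups), *Zfp341* had 1 control tumor far from the others, at 1.59 CPM beside 1.22 to 1.27 CPM. Chance alone gives about 1 such sample in 20 groups.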

How the results depend on the processing

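Nonagouti kept its direction in every alternative: its log2 fold change was 9.74 to 10.38 in tumors and 11.94 to 12.19 in 1% FCS with each sample left out, and 9.95 to 12.29 in 1% FCS LT, highest without *Ctsd*+/+ replicate 2, which holds its only read in *Ctsd*+/+ cells. It was 9.87 (limma-voom) and 11.33 (DESeq2) in 1% FCS, and 9.76 (limma-voom) and 9.85 (1 library code) in 1% FCS LT, sizes that the reads of *Ctsd*+/+ cells do not set. Genes called in tumors numbered 1, with 2 by limma-voom, 265 by DESeq2 and 33 without a filter (1 with each sample left out). Genes called over time in *Ctsd*-/- cells numbered 361, with 1077 by DESeq2, 680 without a filter, 756 within 1 library code and 61 to 527 with each sample left out. In the other 3 comparisons the counts stayed within 1.5 times. Of the 10 genes, 1 to 2 were higher in all 3 genotype comparisons with each sample left out, and 1 was without overlap throughout. Without a filter 1 pathway gene was called in tumors. Of the 5 genes most like nonagouti, 4 stayed with a prior count of 0.5, 2 over tumors only and 0 over cells only. The lowest correlation between same-numbered samples was −0.30 in tumors and −0.29 to 0.09997 over the 6 pairs of cell groups, below the limit of 0.1 set for pairing. In 1% FCS the mean was 0.254 for same and −0.13 for other numbers between the genotypes, 5 of 6 samples correlated best with their own number, and the library code also goes with the number there. Between the genotypes in 1% FCS LT 4 of 6 samples did so. For *Ctsd*-/- cells in 1% FCS LT against either 1% FCS group it was 6 of 6. It was 0 of 6 for *Ctsd*+/+ cells in 1% FCS LT against either 1% FCS group, and 0 of 8 in tumors. With the replicate block the log2 fold change of nonagouti was 10.01 in tumors, 12.03 in 1% FCS and 10.44 in 1% FCS LT, and the counts of genes called were 1, 7479 and 6170, and over time 7156 in *Ctsd*+/+ and 397 in *Ctsd*-/- cells (without it 1, 7367, 6003, 7041 and 361). The melanocortin and pigment genes called stayed the same with it. Settings other than limma-voom and no filter for single pathway genes, and all settings for single genes of the neighborhood, were chosen after seeing the data. The melanocortin and neighborhood calls that were lost stand beside those genes. The causes were not tested.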

Other observations

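Of the 48 genes whose *Ctsd*-/- samples lay wholly above the controls in tumors and at both culture times, nonagouti had the largest change when each gene was ranked by the smallest of its 3 log2 fold changes. *Tmem179* came next (4.14 in tumors, 3.63 in 1% FCS and 5.73 in 1% FCS LT), then *A530016L24Rik* (3.32, 6.66 and 5.84), *Crb1* (5.81, 5.48 and 3.26) and *Slc6a3*, the dopamine transporter (2.96, 5.68 and 3.41). *Tmem179* and *A530016L24Rik* lie on chromosome 12. *Mmp9*, a matrix metalloproteinase that lies on chromosome 2 outside the 2 Mb neighborhood, was sixth with 1.63, 4.05 and 4.66. These genes were ranked on the comparisons that chose them, so the values are descriptions.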
